A study of Homo sapiens with 4 samples.

Results

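The 33 genes examined here encode the proteins that bring glucose into the cell, split it to pyruvate, exchange pyruvate with lactate, and admit pyruvate to the mitochondrial pyruvate dehydrogenase complex. They were picked by gene symbol under a rule that uses no measured value, although earlier results of these data were known when the list was made, and all 33 were found among the 26364 genes listed. Their mRNA levels were measured by RNA-seq in BE(2)C cells, a clonal human neuroblastoma line with an amplified MYCN gene. Control cells (Ctrl, labelled wild type) received a non-targeting siRNA with Lipofectamine, the MYCN knockdown samples (MYCN KD) received 1 siRNA against MYCN in the same way, and all cells carried the amplified MYCN gene. The labels give the siRNA concentration as 80 nM, the study's methods give a lower one, and the cells were collected on the day after transfection. Each condition has 2 samples, and the labels do not say whether these came from separate cultures, so that the p-values measure only the spread between these samples.

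Glycolysis converts glucose to pyruvate in the cytosol with a net gain of ATP and NADH. Lactate dehydrogenase then regenerates NAD+ by reducing pyruvate to lactate, which leaves the cell through monocarboxylate transporters, or the pyruvate dehydrogenase complex oxidises pyruvate to acetyl-CoA for the TCA cycle. Most steps have several isoenzymes encoded by separate genes, with different kinetics and tissue distributions, and proliferating tumour cells are known for high glycolytic flux. MYC family proteins, including MYCN, bind E-boxes with the letters CACGTG as heterodimers with MAX, and several glycolytic genes are known MYC targets.

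MYCN knockdown was accompanied by unequal changes along this pathway. SLC16A1, which encodes the lactate transporter MCT1, fell to 0.378 of its Ctrl RPKM, HK2 to 0.552, ENO1 to 0.645 and LDHB to 0.672. SLC2A3, which encodes the glucose transporter GLUT3, rose 2.31-fold, PFKFB4 1.503-fold and ENO2 1.403-fold. The most abundant genes, GAPDH and PKM, did not pass the test. In these bulk samples, a lower level in every cell and fewer cells that express a gene cannot be told apart. RPKM, the reads of a gene scaled by its length and by the total of reads, had been calculated by the authors from normalized counts, and values can therefore be compared between genes per length. Differences were tested on log2(RPKM + 1) with limma. The fit took in the 11411 genes whose mean RPKM reached 1, the p-values were adjusted over all of them by the Benjamini-Hochberg method, and 0.05 was the threshold. Adding 1 makes the fold changes of weakly expressed genes smaller than their RPKM ratios.

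MYCN itself, the targeted gene, had 1067.9 and 1073.0 RPKM in the Ctrl samples, against 720.2 and 718.0 RPKM after MYCN knockdown (log2 fold change -0.57, standard error 0.0286, adjusted p = 0.00361 from limma), so that most of its mRNA remained. The total of reads behind the values, recovered from their steps, lay between 29055819 and 34142988 per sample. The samples did not vary independently, since each gene's deviations from its group mean were nearly mirrored between same-numbered samples of the 2 conditions (correlation -0.98 across genes). All 7 adrenergic neuroblastoma markers were at or above 1 RPKM. Their summed level was 1181 to 1282 RPKM in Ctrl and 1926 to 2100 RPKM in MYCN KD, with 4 of 7 higher and 1 lower by limma, and their part in the results below was not tested. Of the 6 mesenchymal markers, 3 were at or above a mean of 1 RPKM and PRRX1 was at 0, with a summed level of 213 to 221 RPKM in Ctrl and 252 to 261 RPKM in MYCN KD, most of it THY1, and 2 were higher by limma. The 3 endothelial markers summed to 0.286 to 0.367 RPKM in Ctrl and 0.504 to 0.638 RPKM in MYCN KD, and the 4 epithelial markers to 1.02 to 1.07 RPKM and 1.97 to 2.04 RPKM. The 5 blood cell markers summed to at most 1.78 RPKM in any sample, and HBB was at 0.

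The promoters of 4 genes that the results turn on are shown first, because the E-box letters are present in some of them and not in others. Each line gives the 250 bases before the transcription start from RefSeq (build GRCh38.p14), read 5′ to 3′ on the strand of the gene, with CACGTG in capitals. HK2 lies on the plus strand at chr2:74834920-74835169, LDHA on the plus strand at chr11:18394313-18394562, ENO1 on the minus strand at chr1:8878687-8878936 and LDHB on the minus strand at chr12:21657843-21658092.
HK2: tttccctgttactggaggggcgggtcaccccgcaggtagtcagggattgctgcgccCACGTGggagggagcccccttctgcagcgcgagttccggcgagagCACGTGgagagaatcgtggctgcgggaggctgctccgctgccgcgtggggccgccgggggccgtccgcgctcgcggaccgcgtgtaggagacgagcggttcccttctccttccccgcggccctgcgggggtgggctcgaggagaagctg
LDHA: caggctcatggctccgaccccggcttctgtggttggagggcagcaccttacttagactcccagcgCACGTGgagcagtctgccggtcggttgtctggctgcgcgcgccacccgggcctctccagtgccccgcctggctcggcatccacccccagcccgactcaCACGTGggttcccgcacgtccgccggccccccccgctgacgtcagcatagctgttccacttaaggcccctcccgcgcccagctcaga
ENO1: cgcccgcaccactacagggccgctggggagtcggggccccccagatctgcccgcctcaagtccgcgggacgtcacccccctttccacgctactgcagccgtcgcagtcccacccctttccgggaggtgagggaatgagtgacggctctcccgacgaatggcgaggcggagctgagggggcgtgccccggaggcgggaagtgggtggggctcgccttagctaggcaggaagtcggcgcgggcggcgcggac
LDHB: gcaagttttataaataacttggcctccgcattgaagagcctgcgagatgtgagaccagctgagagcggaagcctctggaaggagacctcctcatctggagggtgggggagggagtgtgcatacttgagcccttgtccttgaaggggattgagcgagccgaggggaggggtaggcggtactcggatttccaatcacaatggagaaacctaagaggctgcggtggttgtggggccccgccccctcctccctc
CACGTG reads the same on both strands, so each copy was counted once. HK2 and LDHA each have 2 windows in the table, of which 1 holds the motif and is shown, while ENO1 and LDHB have 1 window each. The HK2 window shown holds 2 copies, which begin 194 and 149 bases before the start, and the LDHA window shown holds 2 copies, which begin 185 and 87 bases before it. Neither the ENO1 nor the LDHB window holds one, within 250 bases before and 50 bases after the start. Of the 33 genes, 30 had a promoter in the RefSeq table, and SLC2A3, PFKFB2 and SLC16A1 had no entry. Of the 30, 8 held the motif in at least 1 window (26.7%), against 13.2% of the 8489 tested genes with a window. By window the shares were 8 of 60 (13.3%) and 7.26% of all 35116, which include windows of genes not tested. These sets are not matched: the 30 include SLC16A3, PDK1, PDK3 and PDK4, which were not tested and lacked the motif. A gene with more windows also has more places to hold it. Besides HK2 and LDHA, the genes with the motif were PFKFB3, ALDOA, ALDOC, GAPDH, PDK2 and PDHB with 1 copy each. Among the 8, HK2 and PFKFB3 were lower and LDHA was higher in MYCN KD, and the other 5 did not pass the test. A match of these letters is a description of the sequence and not evidence of binding.

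The 33 genes spanned a wide range of expression. GAPDH, which oxidises glyceraldehyde 3-phosphate, ranked 2 among all listed genes by mean RPKM (4681.4), and PKM, the pyruvate kinase of most tissues, ranked 16 (1629.7). ALDOA, TPI1, ENO1 and LDHB followed at 697, 634, 571 and 486 RPKM. At the other end, PFKFB2, SLC16A3, PDK1 and PDK3 had a mean RPKM under 1 and were not tested, and PDK4 was listed at 0 in every sample. Summed over the 33 genes, the share of all RPKM was 2.47% and 2.41% in the Ctrl samples, against 2.37% and 2.44% after knockdown, and these ranges overlap.

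**Figure D1:**
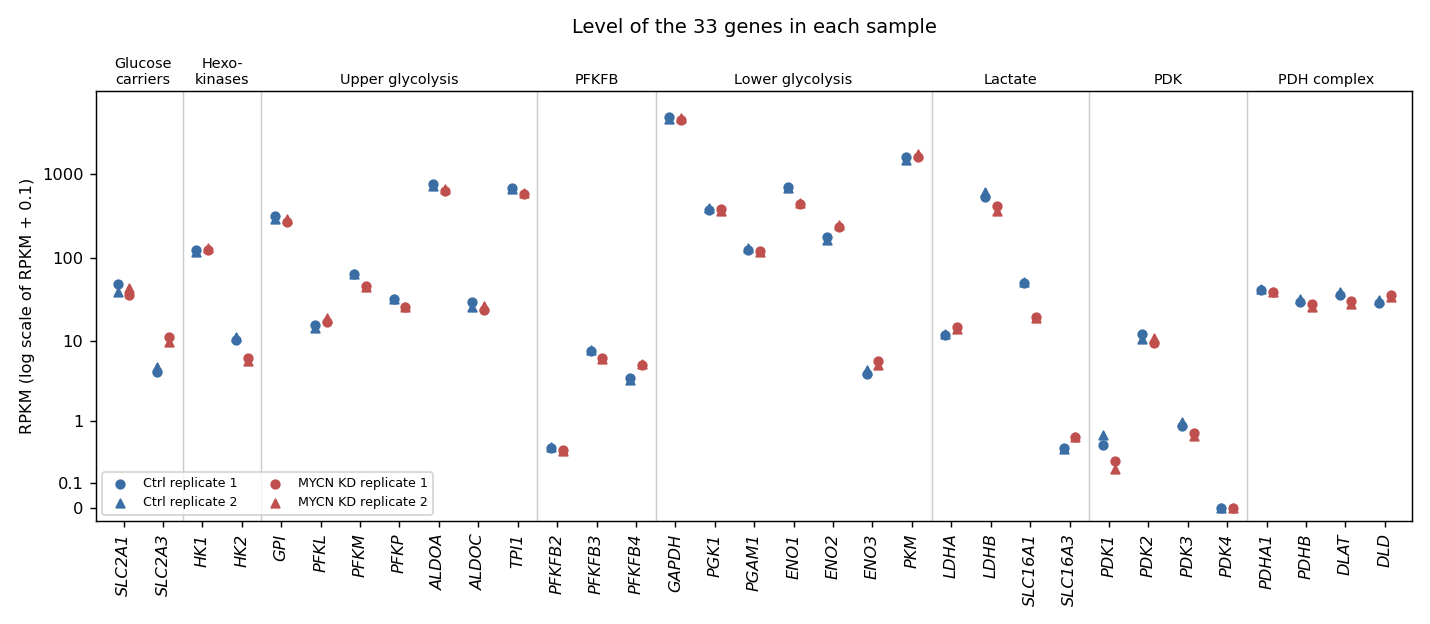
RPKM of the 33 genes in each of the 4 samples, in the order of the pathway, on a log scale of RPKM + 0.1 (circles, replicate 1; triangles, replicate 2; blue, Ctrl; red, MYCN KD). The MYCN KD points of SLC16A1, HK2, ENO1 and LDHB lie below both Ctrl points, those of SLC2A3 and ENO2 lie above both, and PDK4 is at 0.

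Of the 28 tested genes, 4 were higher in MYCN KD (14.3%) and 9 were lower (32.1%), while over all tested genes 25.3% were higher and 22.8% were lower. Another 15 did not pass the threshold. Both MYCN KD values lay above both Ctrl values in 8 genes and below both in 14, and they overlapped in 6. Over all tested genes, 40.4% lay above and 35.8% lay below. The median log2 fold change of the 28 genes was -0.12, against 0.03 over all tested genes. The balance of calls depended on the scaling: higher calls were 30.8% of the members' calls as deposited, 42.9% (6 higher, 8 lower) with the same total in each sample and 41.2% (7 higher, 10 lower) with quantile normalization. Over the calls of all tested genes these shares were 52.7%, 60.7% and 49.2%. For a single value, a two-sided exact permutation test on 2 against 2 samples cannot give a p below 0.3333.

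**Figure D2:**
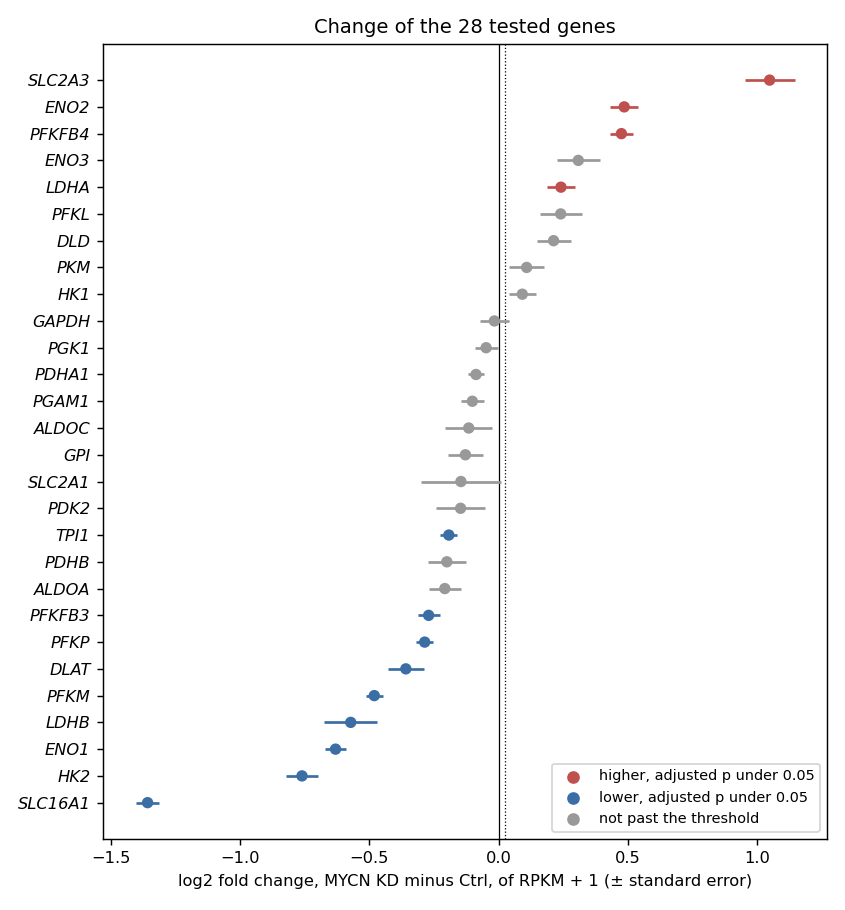
Log2 fold change (MYCN KD minus Ctrl, of RPKM + 1) of the 28 tested genes with its standard error from limma, in order of size. Red and blue points passed an adjusted p of 0.05, grey points did not, and the dotted line is the median of all tested genes (0.03). The range runs from -1.36 for SLC16A1 to 1.05 for SLC2A3.

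Glucose enters through GLUT1, encoded by SLC2A1, and GLUT3, encoded by SLC2A3 and known as the high-affinity carrier of neurons. SLC2A3 had 4.202 and 4.804 RPKM in the Ctrl samples, against 11.1 and 9.71 RPKM after MYCN knockdown, and the conditions did not overlap. It rose by a log2 fold change of 1.05 (standard error 0.0963, adjusted p = 0.00661 from limma), and 163 of the 11411 tested genes had a log2 fold change as high or higher, itself included. SLC2A1 was more abundant, at 43.7 ± 6.23 RPKM in Ctrl and 39.4 ± 5.46 RPKM in MYCN KD (SD, n = 2). Its samples overlapped and it did not pass the test (log2 fold change -0.15, adjusted p = 0.476 from limma). With 1 sample left out its log2 fold change ranged from -0.29 to -0.003, and it was called lower without Ctrl replicate 2 (adjusted p = 0.0440 from limma). The SLC2A1 to SLC2A3 ratio was thus 9.68 in Ctrl and 3.78 in MYCN KD, while the sum of both lay between 44.1 and 52.3 RPKM in Ctrl and between 46.6 and 53.0 RPKM in MYCN KD.

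Hexokinase phosphorylates glucose and so retains it in the cell, with HK1 as the widespread form and HK2 as the inducible form of muscle, fat and many tumours. HK2 (chromosome 2, 75061254 to 75120486 on GRCh37, plus strand) had 10.4 and 11.2 RPKM in the Ctrl samples, against 6.18 and 5.76 RPKM after MYCN knockdown. Both MYCN KD samples were below both Ctrl samples, and HK2 fell by 0.76 on the log2 scale (standard error 0.0619, adjusted p = 0.00567 from limma). HK1, at 120.0 ± 4.90 RPKM in Ctrl and 128.0 ± 5.10 RPKM in MYCN KD (SD, n = 2), did not pass the test (adjusted p = 0.229 from limma), but did with the same total in each sample and with quantile normalization (log2 fold changes 0.15 and 0.14). HK1 made up 92.2% and 91.2% of the summed RPKM of both genes in Ctrl and 95.3% and 95.8% in MYCN KD, and the sum was 134 and 128 RPKM in the Ctrl samples, against 131 and 137 RPKM after MYCN knockdown.

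In the following steps GPI isomerises glucose 6-phosphate, phosphofructokinase (PFKM, PFKP, PFKL) commits the sugar to glycolysis, aldolase (ALDOA, ALDOC) cleaves it, and TPI1 interconverts the triose phosphates. Of these 7 genes, 3 were lower and none was higher, and 6 had a negative log2 fold change. Over all 11411 tested genes, 22.8% were lower and 25.3% were higher, and 5377 had a negative log2 fold change. PFKM, the muscle-type subunit, had 63.5 and 64.5 RPKM in the Ctrl samples, against 45.9 and 45.3 RPKM after MYCN knockdown. The replicates of each condition lay close together, and PFKM fell by 0.48 on the log2 scale (standard error 0.0331, adjusted p = 0.00460 from limma). PFKP, the platelet-type subunit, went from 31.7 to 25.9 RPKM on average (log2 fold change -0.29, adjusted p = 0.00956) and TPI1 from 676 to 591 RPKM (log2 fold change -0.19, adjusted p = 0.0203 from limma), but both calls were lost with any 1 of the 4 samples left out (log2 fold changes from -0.29 to -0.28 for PFKP and from -0.21 to -0.18 for TPI1) and with the replicate block. PFKL, the liver-type subunit, had a log2 fold change of 0.24 with no overlap of the samples but did not pass the test (adjusted p = 0.0860 from limma). Nor did GPI, ALDOA and ALDOC, with log2 fold changes of -0.13, -0.21 and -0.12, although ALDOA was called lower without MYCN KD replicate 2 (log2 fold change -0.26, adjusted p = 0.0482 from limma). The sum of the 3 phosphofructokinase genes was 111 RPKM in both Ctrl samples and 88.9 and 89.9 RPKM in MYCN KD.

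The PFKFB genes encode bifunctional enzymes that make and degrade fructose 2,6-bisphosphate, the main allosteric activator of phosphofructokinase. PFKFB4 had 3.52 and 3.39 RPKM in the Ctrl samples, against 5.10 and 5.28 RPKM after MYCN knockdown. It rose by a log2 fold change of 0.48 (standard error 0.0442, adjusted p = 0.00676 from limma) with no overlap. PFKFB3 was lower, with 7.69 RPKM in Ctrl and 6.21 RPKM in MYCN KD on average (log2 fold change -0.27, adjusted p = 0.0169 from limma), a call that was also lost with any 1 sample left out (log2 fold changes from -0.29 to -0.25) and with the replicate block. PFKFB2 stayed under the filter at 0.434 and 0.398 RPKM on average. The summed level of the 3 genes was 11.5 and 11.6 RPKM in Ctrl and 11.8 RPKM in both MYCN KD samples, while the PFKFB3 to PFKFB4 ratio was 2.23 in Ctrl and 1.20 in MYCN KD.

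From glyceraldehyde 3-phosphate onward, GAPDH produces NADH, PGK1 and PKM produce ATP, PGAM1 moves the phosphate group and enolase (ENO1, ENO2, ENO3) forms phosphoenolpyruvate. GAPDH had 4859.7 and 4555.3 RPKM in the Ctrl samples, against 4508.0 and 4802.7 RPKM after MYCN knockdown. PKM had 1630.0 and 1506.6 RPKM in the Ctrl samples, against 1626.3 and 1755.8 RPKM after MYCN knockdown. The samples of both genes overlapped between conditions, and neither passed the test (log2 fold changes -0.02 and 0.11, adjusted p = 0.833 and 0.251 from limma). For GAPDH the sign depended on the scaling, with 0.045 when each sample was given the same total and -0.29 with quantile normalization, under which it was called lower. PGK1 and PGAM1 did not pass the test either, with log2 fold changes of -0.05 and -0.10. The sign of PGK1 also turned with the same total in each sample, to 0.013. The PKM value is for the whole gene and does not separate its M1 and M2 splice forms.

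ENO1 and ENO2 moved in opposite directions. ENO1, the widespread form, on chromosome 1 (8921059 to 8939249 on GRCh37, minus strand), had 705 and 682 RPKM in the Ctrl samples, against 440 and 455 RPKM after MYCN knockdown. It fell by 0.63 on the log2 scale (standard error 0.0388, adjusted p = 0.00422 from limma), and the samples did not overlap. ENO2, the neuron-specific enolase used as a serum marker of neuroblastoma, had 176 and 166 RPKM in the Ctrl samples, against 233 and 247 RPKM after MYCN knockdown. It rose by a log2 fold change of 0.49 (standard error 0.0549, adjusted p = 0.00911 from limma), again with no overlap. ENO3, the muscle form, was at 4.18 and 5.41 RPKM on average and missed the threshold (log2 fold change 0.31, adjusted p = 0.0540 from limma), but was called higher without Ctrl replicate 2 and without MYCN KD replicate 2 (log2 fold change 0.38 in both, adjusted p = 0.0290 and 0.033 from limma). ENO1 made up 79.6% and 80.0% of the summed enolase RPKM in Ctrl and 64.8% and 64.3% in MYCN KD. The sum itself was 886 and 852 RPKM in the Ctrl samples, against 679 and 708 RPKM after MYCN knockdown.

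Lactate dehydrogenase is a tetramer of A and B subunits, encoded by LDHA and LDHB, of which the A form favours lactate production and the B form lactate oxidation. In these cells LDHB was the leading gene. LDHB (chromosome 12, 21788276 to 21910791 on GRCh37, minus strand) had 543 and 620 RPKM in the Ctrl samples, against 415 and 366 RPKM after MYCN knockdown. It fell by 0.57 on the log2 scale (standard error 0.103, adjusted p = 0.0224 from limma) without overlap, with a wider spread between replicates than ENO1. LDHA (chromosome 11, 18416107 to 18429972 on GRCh37, plus strand) had 11.7 and 12.3 RPKM in the Ctrl samples, against 14.7 and 14.0 RPKM after MYCN knockdown. Its samples did not overlap and it rose by a log2 fold change of 0.24 (standard error 0.053, adjusted p = 0.0343 from limma), but the call was lost with any 1 of the 4 samples left out (log2 fold changes from 0.20 to 0.28) and with the replicate block. LDHB exceeded LDHA 48.4-fold in Ctrl and 27.2-fold in MYCN KD, and its share of the summed RPKM was 97.9% and 98.1% in the Ctrl samples, against 96.6% and 96.3% after knockdown. How reads that map to several related sequences were counted is not given in the sources used here, so the level of genes with processed pseudogene copies, such as LDHA and GAPDH, is uncertain.

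Monocarboxylate transporters carry lactate and pyruvate with a proton across the plasma membrane. SLC16A1, which encodes MCT1 and lies on chromosome 1 (113454469 to 113500215 on GRCh37, minus strand), had 49.9 and 52.0 RPKM in the Ctrl samples, against 19.6 and 18.9 RPKM after MYCN knockdown. The gap between conditions was far wider than that between replicates, and SLC16A1 fell by 1.36 on the log2 scale (standard error 0.0445, adjusted p = 0.00359 from limma). Only 19 of the 11411 tested genes, itself included, had a log2 fold change this low or lower. SLC16A3, which encodes the lactate exporter MCT4 of glycolytic tissues, had 0.425 and 0.416 RPKM in the Ctrl samples, against 0.610 and 0.612 RPKM after MYCN knockdown. These values rest on 33 to 47 normalized reads per sample. SLC16A3 was under the filter, and without the filter its log2 fold change of 0.18 passed the threshold (adjusted p = 0.0147 from limma). The SLC16A1 to SLC16A3 ratio was 121 in Ctrl and 31.5 in MYCN KD. BSG, which encodes the chaperone basigin that MCT1 needs at the membrane, did not pass the test (504.3 and 455.2 RPKM in the Ctrl samples, against 438 and 484 RPKM after knockdown, adjusted p = 0.599 from limma), and nor did SLC16A7, which encodes MCT2 (adjusted p = 0.898 from limma).

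The pyruvate dehydrogenase complex, with the subunits encoded by PDHA1, PDHB, DLAT and DLD, is switched off by the kinases PDK1 to PDK4. DLAT, the acetyltransferase core subunit, had 36.2 and 39.4 RPKM in the Ctrl samples, against 30.4 and 28.1 RPKM after MYCN knockdown. It fell by 0.36 on the log2 scale (standard error 0.0704, adjusted p = 0.0270 from limma) without overlap, and missed the threshold when each sample was given the same total (adjusted p = 0.0614 from limma). PDHA1 and PDHB had log2 fold changes of -0.09 and -0.20 and DLD, which other dehydrogenase complexes share, one of 0.21, each without overlap of the samples and none past the threshold (adjusted p from 0.0712 to 0.105 from limma). PDK2 was the leading kinase gene, at 11.4 ± 1.01 RPKM in Ctrl and 10.2 ± 0.874 RPKM in MYCN KD (SD, n = 2), with overlapping samples (adjusted p = 0.271 from limma). PDK1 had 0.468 and 0.660 RPKM in the Ctrl samples, against 0.272 and 0.194 RPKM after MYCN knockdown, or 93, 123, 46 and 35 normalized reads. PDK3 had 0.923 and 0.667 RPKM on average. Without the filter neither passed the threshold (adjusted p = 0.0604 and 0.0544 from limma). In the GENCODE annotation, exons of DLAT, PDHA1 and PDK2 overlap those of neighbouring listed genes over 13.3%, 19.3% and 38.6% of their exon bases. The authors counted on RefSeq genes, for which this overlap was not measured. Whether reads were counted by strand is not given in the sources used here.

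Set side by side, the isoenzyme families differed in how their composition changed. The log2 ratio of the leading to the second gene, given here with its standard error in parentheses, differed between MYCN KD and Ctrl by -1.94 for SLC16A1 to SLC16A3 (0.055), -1.35 for SLC2A1 to SLC2A3 (0.339), -1.12 for ENO1 to ENO2 (0.027), -0.90 for PFKFB3 to PFKFB4 (0.0642) and -0.83 for LDHB to LDHA (0.0753). It differed in the other direction for HK1 to HK2, by 0.95 (0.131). The standard errors come only from the spread between the 2 samples of each condition. SLC16A3 was under the filter, with 33 to 47 normalized reads per sample, so that 0.055 can understate the uncertainty of its ratio. With 1 added to each RPKM, the difference for SLC16A1 to SLC16A3 was -1.54. The shifts were small for PFKM to PFKP (-0.19) and ALDOA to ALDOC (-0.09). In these 8 families the ratios of the conditions did not overlap, and the exact permutation test gave its smallest p of 0.3333 (0.375 after Benjamini-Hochberg adjustment over 9 families). Lack of overlap was common in these data: for single tested genes, 40.4% lay above in MYCN KD and 35.8% lay below. No such share was calculated for ratios of other gene pairs. The PDK2 to PDK3 ratio overlapped between conditions (exact p = 0.6667). Ratios within a sample do not depend on how the sample was scaled by a common factor.

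**Figure D3:**
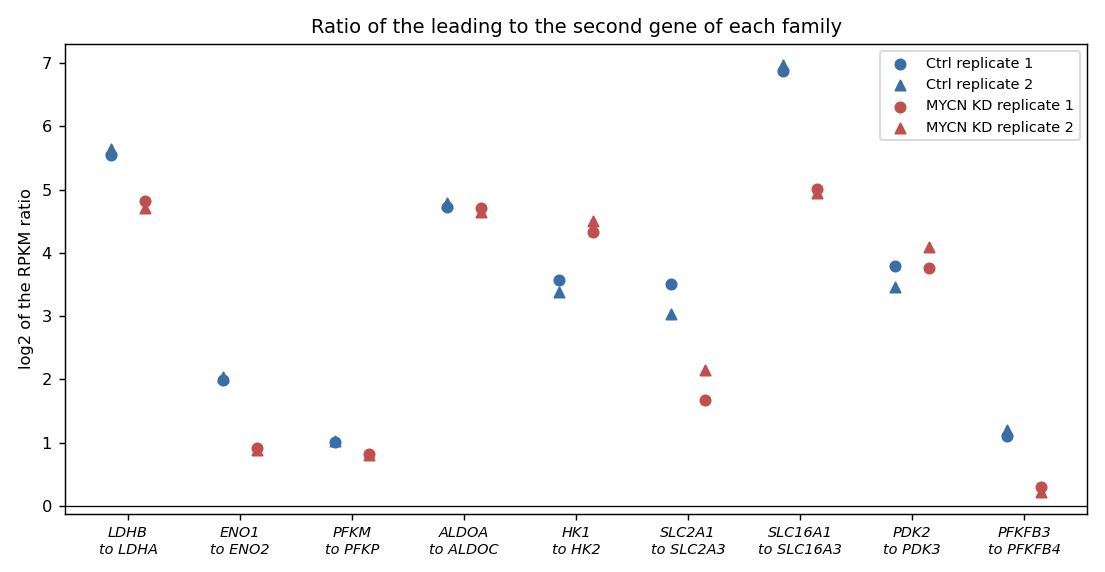
Log2 of the RPKM ratio of the leading to the second gene in 9 families, in each sample (circles, replicate 1; triangles, replicate 2; blue, Ctrl; red, MYCN KD). Both MYCN KD points lie below both Ctrl points in 7 families and above both for HK1 to HK2, and the points of PDK2 to PDK3 overlap.

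Against the spread of all tested genes, the members with the lowest log2 fold changes stood near the end of the distribution and most others near its middle. SLC16A1 was at the lowest 0.167% of the tested genes, HK2 at 3.78%, ENO1 at 6.24% and LDHB at 7.84%. PFKM was at 10.9% and DLAT at 16.9%. On the other side, SLC2A3 was at 98.6%, ENO2 at 87.4% and PFKFB4 at 86.9%.

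**Figure D4:**
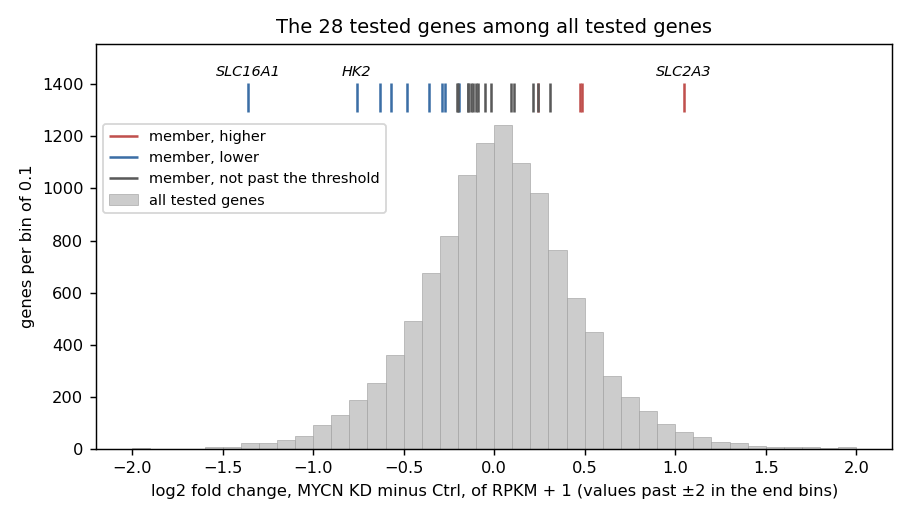
Distribution of the log2 fold change (MYCN KD minus Ctrl, of RPKM + 1) over the 11411 tested genes in bins of 0.1, with the 28 tested members as ticks above it (red, higher; blue, lower; grey, not past the threshold). SLC16A1 and HK2 stand on the left and SLC2A3 on the right, and the 15 members that did not pass the threshold lie between -0.21 and 0.31.

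Genes next to this pathway were taken from lists of 81 further genes, which include the 9 known regulators described below. Of the 81 genes, 62 were tested, with 7 higher (11.3%) and 23 lower (37.1%) in MYCN KD and a median log2 fold change of -0.08. MYCN, the target of the siRNA, is among those counted as lower. Over all tested genes, against which this count and those of the single lists are to be read, 25.3% were higher and 22.8% lower, with a median of 0.03. Of the 10 other genes of glucose uptake and its control, 6 were tested, 3 were higher and 1 was lower. SLC2A6, which encodes a lysosomal hexose transporter, had 32.4 and 29.6 RPKM in the Ctrl samples, against 51.6 and 56.2 RPKM after MYCN knockdown (log2 fold change 0.78, adjusted p = 0.00688 from limma). TXNIP, which promotes the internalisation of glucose transporters, was higher by 0.30 on the log2 scale (adjusted p = 0.0146), and TIGAR, a fructose bisphosphatase, fell by 0.20 on the log2 scale (adjusted p = 0.0233 from limma). The 16 isoenzyme genes outside the 33 included 5 that were tested. PGAM2, the muscle phosphoglycerate mutase, was higher (log2 fold change 0.52, adjusted p = 0.00828), and ADPGK, the ADP-dependent glucokinase, and GAPDHS, the sperm form of GAPDH, were lower (-0.37 and -0.22, adjusted p = 0.00767 and 0.0193 from limma).

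All 10 genes of a list on pyruvate import, formation and use, including control of the pyruvate dehydrogenase complex, were tested, with 1 higher and 4 lower. Besides the genes named below, the list holds PDPR, which was lower, and PDHX, PCK2 and ME1, which did not pass the test. PDP1, a phosphatase that reactivates the pyruvate dehydrogenase complex, had 2.32 and 2.66 RPKM in the Ctrl samples, against 4.30 and 3.77 RPKM after MYCN knockdown (log2 fold change 0.53, adjusted p = 0.0187 from limma). PDP2, the other catalytic phosphatase, was lower (log2 fold change -0.34, adjusted p = 0.0439), as was ME2, a mitochondrial malic enzyme that forms pyruvate (-0.56, adjusted p = 0.0250 from limma). Of the 2 subunit genes of the mitochondrial pyruvate carrier, MPC1 was lower (log2 fold change -0.26, adjusted p = 0.01125 from limma) and MPC2 did not pass the test (adjusted p = 0.859 from limma). PC, the pyruvate carboxylase, did not pass it either (adjusted p = 0.459 from limma).

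Of 9 known regulators of glycolytic genes, 8 were tested, 2 were higher and 3, including MYCN, were lower. MYC had 0.780 and 0.542 RPKM in the Ctrl samples, against 6.74 and 9.32 RPKM after MYCN knockdown (log2 fold change 2.43, standard error 0.180, adjusted p = 0.00497 from limma). MAX, the partner of both MYC proteins, was lower (log2 fold change -0.48, adjusted p = 0.00640 from limma). So was MLXIP (log2 fold change -0.47, adjusted p = 0.02265 from limma). EPAS1, which encodes HIF2A, was higher (0.35, adjusted p = 0.00994), while HIF1A had a log2 fold change of 0.48 and did not pass the test (53.2 and 64.7 RPKM in the Ctrl samples, against 90.3 and 74.7 RPKM after knockdown, adjusted p = 0.0734 from limma). Whether any of these had a part in the changes of the 33 genes was not tested.

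**Figure D5:**
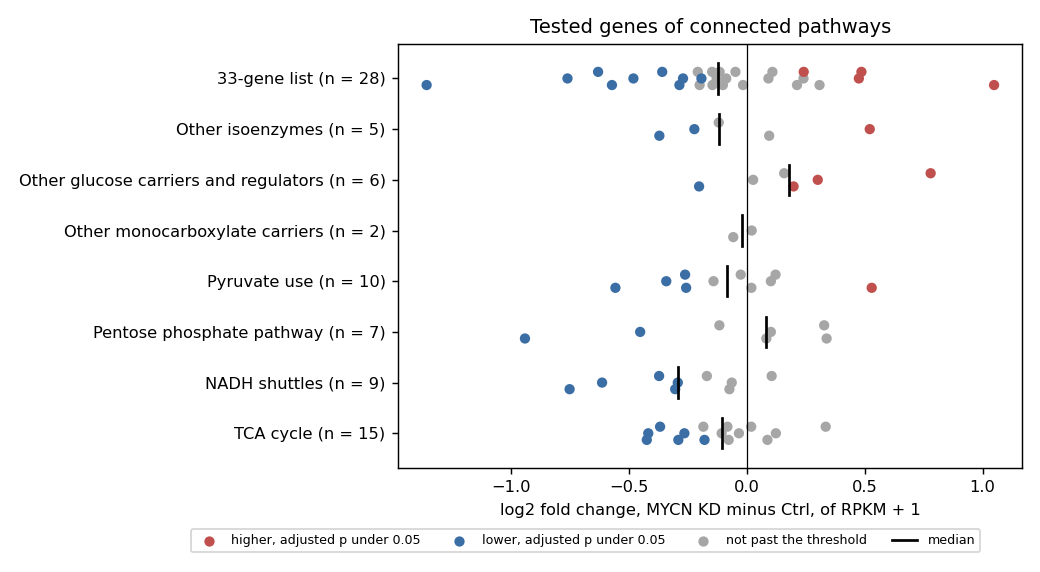
Log2 fold change (MYCN KD minus Ctrl, of RPKM + 1) of each tested gene in the 33-gene list and in 7 lists of connected pathways (red, higher; blue, lower; grey, not past the threshold; black bar, median). No gene of the pentose phosphate pathway, the NADH shuttles or the TCA cycle passed the test as higher, and 13 did as lower.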

How the data were processed

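Total RNA of BE(2)C cells was sequenced in 2 Ctrl and 2 MYCN KD samples, grouped by the labels. The authors mapped reads to hg19 (GRCh37) with HISAT2 (version 2.1.0 in the submitters' processing notes), counted them on RefSeq genes with featureCounts, passed the counts through DESeq2 and RUVSeq, which takes out variation not due to the design, and deposited the resulting RPKM in 1 file per sample. The RUVSeq variant, the number of factors, and the handling of strand and multiply mapped reads are not given in the sources used here. Any effect of these steps is already in the values.

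Read totals were recovered from the RPKM steps of small RNA genes (from 93.5% to 94.5% of them whole, within 0.02 of a read). The authors calculated RPKM from normalized counts, so the reads given here for single genes are normalized reads. Whether the totals count mapped or normalized reads was not tested, and they show counting error only. Log2(RPKM + 1) was fitted with limma 3.58.1 in R 4.3.3 (lmFit, eBayes with a trend) where the mean RPKM of a gene reached 1. P-values were adjusted by the Benjamini-Hochberg method, with 0.05 as the threshold. The fit was also run on simulated reads. These were drawn independently for each sample, without the mirrored deviations or the earlier adjustment of the real values, and so do not test the p-values under those conditions. No replicate block was used. Deviations of same-numbered samples correlated at -0.98. Whether the numbers, which come from the labels, mark samples handled together was not tested. Nor was it tested whether the adjustment before deposit shaped this correlation. The rest was done in Python 3.11.15 (pandas 2.3.3, numpy 2.4.6, scipy 1.17.1) and drawn with matplotlib 3.10.9. Gene positions came from GENCODE lifted to GRCh37 and promoters from RefSeq (GRCh38.p14). These annotations can define different transcripts, so a stated gene position need not begin at the promoter shown. The 4 repeated rows of date-like symbols were kept apart.

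The members and all gene lists were chosen with earlier results of these data known. Values in every sample are given for members past the threshold with an absolute log2 fold change of at least 0.3 and for LDHA, LDHB, PKM, HK2, GAPDH, SLC16A1 and MYCN. Of each other list up to 3 genes past the threshold are named by size of change, and the remaining genes named were chosen after their values were seen. Alternatives were a pseudocount of 0.1, no filter, a minimum mean RPKM of 5, the same total in each sample, quantile normalization, eBayes without a trend, a replicate block and each sample left out. A crossed replicate block was added after seeing the data. The study's qPCR, Western blot, MNase-seq and ChIP-seq data were not analysed here.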

Additional observations from a re-analysis of the deposited data

How the results depend on the processing

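Of the 13 called genes, 8 (SLC2A3, HK2, PFKM, PFKFB4, ENO1, ENO2, LDHB and SLC16A1) kept their direction and their call under every alternative that tested them. LDHA, PFKP, PFKFB3 and TPI1 lost the call with the replicate block and with each sample left out, and DLAT with the same total in each sample. The cause was not tested. GAPDH, not called, turned to 0.045 with the same total in each sample and ranged from -0.063 to 0.031 with 1 sample left out, and PGK1 turned to 0.013 with the same total. The median of the 28 genes (-0.12) became -0.062 with the same total, -0.073 with quantile normalization and -0.162 to -0.075 with 1 sample left out. Quantile normalization gave 7 higher members, with HK1, ENO3 and DLD added to the 4, and called GAPDH lower, and the same total in each sample added HK1 and PFKL. Leaving out 1 sample added calls for SLC2A1, ALDOA and ENO3.

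Among the further genes (7 higher, 23 lower), the same total gave 13 higher and quantile normalization 12 higher, the replicate block gave 13 lower, and leaving out 1 sample gave 14 to 17 lower. With the replicate block 3 members were higher and 6 were lower, and 2077 of all genes were higher and 1851 lower. With crossed numbers, an alternative chosen after seeing the data, 9 members were higher and 19 lower, as were 5910 and 5262 of all 11411 tested genes. Fits with 1 sample in a condition assume that it varies like the other condition. The p-values rest on 2 samples a condition whose deviations mirror each other, and on values adjusted before deposit.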

Other observations

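In the pathways that branch from glycolysis, the called genes were lower in MYCN KD. Of the 7 pentose phosphate genes, 2 were lower, both in the non-oxidative part. RPIA, which isomerises ribose 5-phosphate, had 11.3 and 11.4 RPKM in the Ctrl samples, against 5.42 and 5.41 RPKM after MYCN knockdown (log2 fold change -0.94, adjusted p = 0.00359 from limma), and TKT, the transketolase, had 179 and 163 RPKM in the Ctrl samples, against 119 and 130 RPKM after MYCN knockdown (log2 fold change -0.45, adjusted p = 0.0205 from limma).

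The shuttles that carry electrons of cytosolic NADH into mitochondria had 9 tested genes, of which 5 were lower and none was higher. SLC25A13, the aspartate-glutamate carrier citrin, had 35.5 and 39.9 RPKM in the Ctrl samples, against 23.2 and 20.8 RPKM after MYCN knockdown (log2 fold change -0.75, adjusted p = 0.0104 from limma). GOT2, the mitochondrial aspartate aminotransferase, was lower by a log2 fold change of -0.61 (adjusted p = 0.00422), and so was MDH2, the mitochondrial malate dehydrogenase, by -0.37 (adjusted p = 0.0264 from limma). Of the 15 TCA cycle genes, 6 were lower and none was higher, led by IDH3A (-0.42, adjusted p = 0.0234), SDHB (-0.42, adjusted p = 0.0108) and FH (-0.37, adjusted p = 0.0297 from limma). Over all tested genes 22.8% were lower.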
